A study of Mus musculus with 14 samples.

Results

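miR-191, miR-425 and miR-423 are miRNAs often used as endogenous references in blood plasma, and they were followed here assay by assay in a quantitative PCR screen of mouse plasma. Their wells were taken by name, as every well whose miRNA is miR-191, miR-425 or miR-423 once species prefix, arm and star are removed. These miRNAs, and the lists set beside them, were chosen with earlier results of these data known. This gave 8 of the 392 named wells, holding 6 of the 389 named miRNAs, namely mmu-miR-191, mmu-miR-191*, mmu-miR-425, mmu-miR-425*, mmu-miR-423-3p and mmu-miR-423-5p. All 6 passed the filter on missing values and 5 were measured in every mouse. The study itself picked miR-191, miR-423-3p and miR-103 as references on these samples by the geNorm and NormFinder algorithms, so their stability below is not independent evidence. Nor is that of miR-425, which was chosen knowing earlier results of these data.

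Plasma of 6 wild-type control mice was compared with plasma of 8 GEMM OS mice, a genetically engineered mouse model of osteosarcoma (OS), 1 sample per mouse. By the methods, the GEMM carries Cre recombinase under a Col-α1(I) promoter, active in osteoblasts, with one or both Trp53 alleles floxed, and the sources used here do not give which OS mouse carried which genotype. The controls were age-matched littermates with intact p53, listed in the methods as p53+/+;Cre+/-. Blood was drawn by cardiac puncture into EDTA, in the GEMM once a tumor had formed, and the sources used here give neither age nor tumor site of single mice.

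A miRNA hairpin is cut by Dicer into a duplex of 2 arms, of which one is usually loaded into Argonaute and kept while the other, marked by a star in older names, is mostly lost. The loaded strand finds targets mainly through its seed, bases 2 to 8. miR-191 and miR-425 are made from neighbouring hairpins inside Dalrd3, and miR-423 from a hairpin inside Nsrp1, both genes expressed in many tissues. Plasma carries miRNAs in vesicles and protein complexes released by blood cells, vessels and organs, and a reference miRNA is used to remove differences in how much RNA was recovered from each sample, which it can do only if its own level is steady.

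The mature sequences are shown because the arms and neighbours compared below are separate RNAs with separate assays. They are from RefSeq on GRCm38.p6, where all 6 assays matched by name, with the seed in capitals. mmu-miR-191 is the 5p arm at chr9:108568325-108568347 on the + strand and mmu-miR-191* the 3p arm at chr9:108568367-108568388. mmu-miR-425 is the 5p arm at chr9:108568789-108568811 on the + strand and mmu-miR-425* the 3p arm at chr9:108568830-108568850. mmu-miR-423-5p lies at chr11:77078122-77078144 and mmu-miR-423-3p at chr11:77078086-77078108, both on the - strand.
mmu-miR-191: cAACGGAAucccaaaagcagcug
mmu-miR-191*: gCUGCACUuggauuucguuccc
mmu-miR-425: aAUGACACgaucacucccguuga
mmu-miR-425*: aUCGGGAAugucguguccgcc
mmu-miR-423-5p: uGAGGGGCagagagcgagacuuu
mmu-miR-423-3p: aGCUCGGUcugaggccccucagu
No pair among the 6 shares a seed. Elsewhere in RefSeq, miR-489-3p has the seed of miR-425 and miR-6921-5p has that of miR-423-5p, and neither was named on the panels. The hairpins show how the arms of each pair lie on 1 precursor, with both arms in capitals and the loop and flanks in lower case.
Mir191: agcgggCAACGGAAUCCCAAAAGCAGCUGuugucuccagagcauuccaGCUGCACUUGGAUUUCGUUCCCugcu
Mir425: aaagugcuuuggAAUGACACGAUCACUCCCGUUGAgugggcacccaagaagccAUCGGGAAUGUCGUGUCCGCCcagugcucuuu
Mir423: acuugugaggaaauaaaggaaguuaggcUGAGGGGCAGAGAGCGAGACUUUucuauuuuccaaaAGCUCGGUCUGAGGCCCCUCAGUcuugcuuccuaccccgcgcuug
The Mir191 hairpin, 74 bases, and the Mir425 hairpin, 85 bases, are separated by 384 bases, and both overlap Dalrd3 at chr9:108567484-108572773. The Mir423 hairpin, 109 bases, overlaps Nsrp1 at chr11:77044292-77078437.

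The authors deposited quantification cycles (Cq), which lie on a log2 scale and are lower for more RNA, without normalization between mice. A Cq over 37 was set to missing, and a level is here the mean Cq of all retained miRNAs in a mouse minus the Cq of the assay, so that 1 unit is a doubling and 0 is the average retained miRNA. Of the 389 named miRNAs, 333 to 387 were detected per mouse. OS replicates 10, 11 and 12 stood apart on a haemolysis marker, the Cq of miR-23a minus that of the red cell miRNA miR-451, which rises when red cells break. It was 1.05, 2.97 and 2.59 cycles in these 3 mice, 4.26 to 6.85 in the other OS mice, and 4.11 to 7.21 in the controls. The members' differences, ratios, correlations and stability are therefore also given without them, a choice made after the data were seen. Levels of cell type markers were summed on the linear scale and taken to log2, so that the most abundant weigh most. The 5 red cell miRNAs, all measured in every mouse, gave 11.98 to 14.02 in controls and 9.67 to 12.98 in OS. Of the 5, 1 was called lower, miR-144 (log2 difference -2.38), and the others ran from -1.43 (miR-451) to 0.05 (miR-486). The 6 white cell miRNAs gave 7.86 to 9.40 in controls and 6.61 to 7.78 in OS. Of the 6, 1 was called lower, miR-142-3p (-3.57), and the others ran from -1.18 (miR-142-5p) to 0.08 (miR-146a). Over all 388 retained miRNAs, 12.6% were called in either direction. No platelet, liver or muscle marker was called. The part of these cells in the results below was not tested. In plasma, fewer cells of a type and less RNA released per cell cannot be told apart.

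None of the 6 assays was called different between OS and control mice. miR-425*, miR-423-3p and miR-423-5p had the largest differences, 2.09-fold, 2.04-fold and 1.77-fold toward OS, and these fell under 0.05 at an unadjusted p alone. miR-425 had the smallest difference of the 6 and the smallest spread. Over all 388 retained miRNAs, 49 were called by limma at a Benjamini-Hochberg adjusted p under 0.05, which is 12.6%, and the members' count was 0 of 6. At an unadjusted p, 3 of 6 were under 0.05, all higher in OS, against 16% of all miRNAs in that direction. The methods' t-test likewise gave 0 of 6 after adjustment and 3 of 6 before. The median log2 difference of the 6 was 0.71, against -0.00 over all 388.

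mmu-miR-191, the guide arm of Mir191, had a mean Cq of 28.4 over the mice and stood 66th from the lowest of the 388. Its level was 2.00 at the lowest, 3.47 at the median and 3.81 at the highest in controls, and 2.19, 3.65 and 4.54 in OS. The groups overlapped over most of their range, with the low ends set by control replicate 1 and OS replicate 17 and the high end by OS replicates 10, 11 and 12. The difference was 0.42 (SE 0.40, limma adjusted p = 0.498; exact permutation test, two-sided, p = 0.303), with a 95% interval of -0.42 to 1.27. It was 0.00 without OS replicates 10, 11 and 12, 0.24 with the haemolysis marker as covariate, 0.18 without control replicate 1 and 0.64 without OS replicate 17, the ends of the range when 1 mouse was left out.

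mmu-miR-191*, the opposite arm, was close to the Cq limit, with a mean of 35.2. It was over 37 in 3 of 14 mice, control replicate 4 and OS replicates 18 and 19. Its level ran from -4.62 over a median of -4.17 to -2.07 in the 5 controls that measured it, and from -4.25 over -3.25 to -1.61 in the 6 OS mice. The groups overlapped throughout, and the difference of 0.60 (SE 0.54) had a limma adjusted p of 0.474. It was 0.042 without OS replicates 10, 11 and 12, and with 1 mouse left out it ran from 0.30 without OS replicate 10 over 0.38 without control replicate 13 to 1.03 without control replicate 2.

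mmu-miR-425 had a mean Cq of 29.8 and the narrowest spread among the members. Its level was 1.40 at the lowest, 2.22 at the median and 2.83 at the highest in controls, and 1.63, 2.04 and 2.45 in OS, so that the OS values lay inside the control range. The difference was -0.11 (SE 0.30, limma adjusted p = 0.842; exact permutation p = 0.601), with a 95% interval of -0.73 to 0.51. Its sign turned when scaled to the median (0.03), with each panel on its own mean (0.14), with the haemolysis marker as covariate (0.01) and without control replicate 3 (0.02), and it was -0.07 without OS replicates 10, 11 and 12. The SD over all 14 mice was 0.360, the fifth smallest of 276, against 0.722 in the case of miR-191 and 0.893 in that of miR-423-3p.

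mmu-miR-425*, the opposite arm of the same precursor, spread wider than miR-425. Its level was -3.57, -3.05 and -1.74 (lowest, median, highest) in controls and -2.86, -1.99 and -0.23 in OS. The 3 highest values were those of OS replicates 10, 12 and 11, and the rest of the OS mice lay within the control range. The difference was 1.06 (SE 0.45, limma adjusted p = 0.123; exact permutation p = 0.0396), and 0.49 without those 3 mice (adjusted p = 0.560).

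mmu-miR-423-3p had a mean Cq of 28.9. Its level was 2.04, 2.34 and 3.27 (lowest, median, highest) in controls and 2.20, 3.26 and 4.61 in OS. OS replicates 10, 11 and 12 stood at 4.61, 4.44 and 4.43, over 1 cycle above all controls, while the other 5 OS mice ran from 2.20 to 3.48 and overlapped them. The difference was 1.03 (SE 0.41, limma adjusted p = 0.108; exact permutation p = 0.0296), or 2.04-fold. It was called when OS replicate 15 was left out (1.21, adjusted p = 0.0417), and it was 0.43 without OS replicates 10, 11 and 12 (adjusted p = 0.564).

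mmu-miR-423-5p, the other arm of Mir423, had levels of 1.04, 1.59 and 1.85 (lowest, median, highest) in controls and 1.13, 2.37 and 3.26 in OS. Its control values were the tightest of the 6 assays (SD 0.286, n = 6), and all OS mice but replicate 15, which at 1.13 lay near the lowest control, were above every control. The difference was 0.82 (SE 0.34, limma adjusted p = 0.123; exact permutation p = 0.0186), and it was called without OS replicate 15 (1.00, adjusted p = 0.0381). Without OS replicates 10, 11 and 12 it was 0.62 (adjusted p = 0.444), the largest difference left among the 6.

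**Figure D1:**
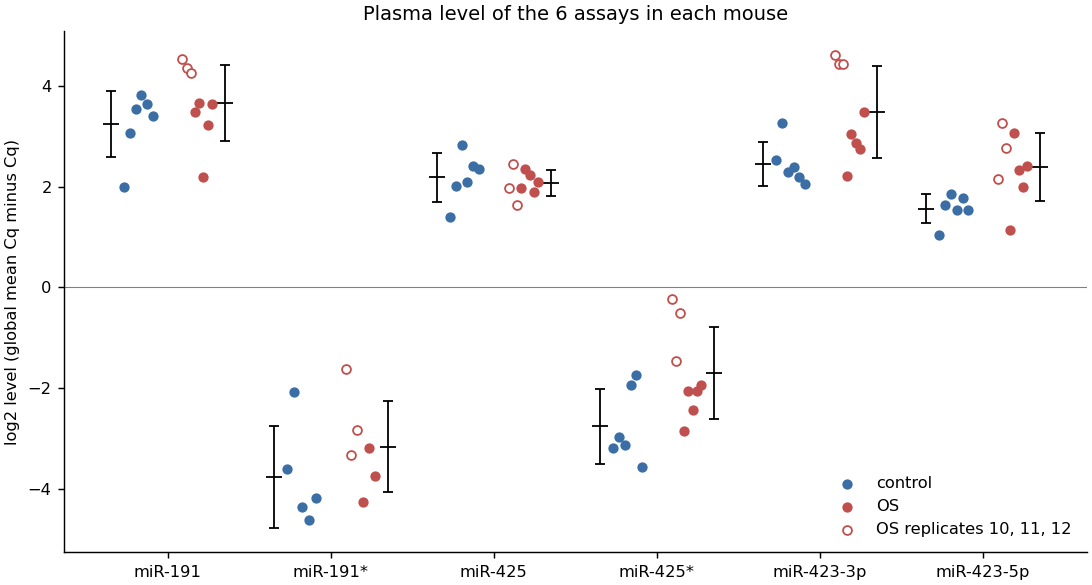
Level of each assay (y axis, global mean Cq minus Cq, log2) in each mouse, with controls in blue, OS mice in red and OS replicates 10, 11 and 12 as open circles. Black bars give the mean and SD of each group. The open circles are all at the top of the OS range for miR-191, miR-425* and miR-423-3p. For miR-425 they lie at both ends of it, OS replicate 12 at 1.63 and OS replicate 11 at 2.45.

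Among the members, only miR-191 and miR-423-3p were measured on both panels, which gives the error of a single well. The Cq of the panel II well minus that of panel I was -0.554 ± 0.215 cycles for miR-191 (SD, n = 14), below 0 in 14 of 14 mice, and -0.220 ± 0.217 for miR-423-3p (SD, n = 14), below 0 in 11 of 14. The wells of miR-191 tracked each other across mice with r = 0.979 and those of miR-423-3p with r = 0.981, both in unscaled Cq. The SD of these differences corresponds to an error of 0.152 cycles in a single miR-191 well and 0.153 in a single miR-423-3p well, beside SDs of 0.722 and 0.893 between mice. The offset between panels did not differ between groups beyond the spread between mice (differences of -0.04 and -0.02 cycles, exact permutation p = 0.744 and 0.894). miR-425, miR-425*, miR-423-5p and miR-191* had 1 well each, so their own well error is not known.

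Ratios between assays of the same mouse are free of the scaling. miR-425 exceeded miR-425* less in OS than in controls, at an unadjusted p alone, and the other arm ratios differed by less than the spread between mice. The miR-425 over miR-425* log2 ratio was 4.03, 4.78 and 5.96 (lowest, median, highest) in controls and 2.14, 3.99 and 4.83 in OS. OS replicates 10 and 12 were the lowest, at 2.21 and 2.14, and the other 6 OS mice ran from 3.91 to 4.83, across the low end of the control range. The difference was -1.17 (SE 0.50; exact permutation p = 0.04995), with a limma adjusted p of 0.113 over the 75 arm ratios, -0.56 without OS replicates 10, 11 and 12 (adjusted p = 0.468) and -0.57 with the haemolysis marker as covariate (adjusted p = 0.572). Of the 75 arm ratios, 7 were called, 9.33%, and none of the 3 ratios here was among them. At an unadjusted p under 0.05 and lower in OS, 1 of the 3 stood beside 21.3% of all arm ratios.

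miR-191 over miR-191* had a log2 ratio of 5.13 to 8.26 in the 5 controls and 5.94 to 7.72 in the 6 OS mice that measured both, and the difference was 0.01 (SE 0.60, 95% interval -1.26 to 1.28; exact permutation p = 0.991). miR-423-3p over miR-423-5p ran from 0.42 to 1.63 in controls and from -0.01 to 2.46 in OS, with a difference of 0.21 (SE 0.40, 95% interval -0.63 to 1.04; exact permutation p = 0.584). Both intervals hold a doubling in at least one direction, so the ratios are not shown to be equal. The miR-423 difference turned to -0.20 without OS replicates 10, 11 and 12 and to -0.24 with the haemolysis marker as covariate, and that of miR-191 to -0.061 and 0.96 (adjusted p = 0.983 and 0.512). Over all 14 mice the miR-423 ratio had an SD of 0.648 and was the 13th least variable of the 75 arm ratios, while the miR-191 and miR-425 ratios were 44th and 52nd, with SDs of 1.05 and 1.10 against a median of 0.940.

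Between precursors, miR-191 exceeded miR-425 by a log2 ratio of 0.60, 1.06 and 1.73 (lowest, median, highest) in controls and -0.04, 1.53 and 2.62 in OS. The difference of 0.53 (SE 0.40; exact permutation p = 0.181) was within the spread, and it was 0.07 without OS replicates 10, 11 and 12 and 0.23 with the haemolysis marker as covariate. miR-423-3p over miR-425 was -0.55, 0.05 and 1.27 in controls and 0.23, 1.13 and 2.80 in OS. The difference of 1.13 (SE 0.47; exact permutation p = 0.0386) had a limma adjusted p of 0.125 over the 387 miRNAs set against miR-425. It was 0.49 without OS replicates 10, 11 and 12 (adjusted p = 0.631) and 0.45 with the covariate (adjusted p = 0.572). miR-423-3p over miR-191 differed by 0.60 (SE 0.49; exact permutation p = 0.155), by 0.42 without those 3 mice and by 0.22 with the covariate. Expressed as the SD of the ratio over 14 mice, miR-191 and miR-425 were at 0.717, and 6.99% of the 37950 pairs of miRNAs measured in every mouse had a smaller SD. For miR-423-3p and miR-191 the SD was 0.775 (9.82% smaller) and for miR-423-3p and miR-425 it was 1.04 (27.5% smaller).

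**Figure D2:**
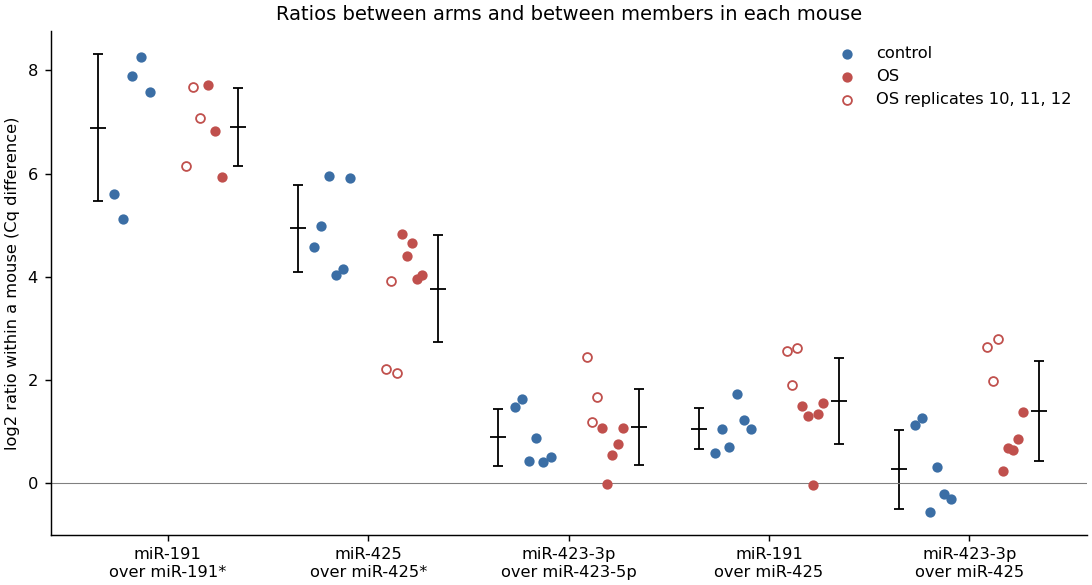
Log2 ratio of assays within a mouse (y axis, Cq difference) for the 3 arm pairs and for miR-191 and miR-423-3p over miR-425. Controls are blue, OS mice red, OS replicates 10, 11 and 12 open, and bars give mean and SD. The miR-425 over miR-425* ratio is lowest in 2 of the open circles, and miR-423-3p over miR-425 is highest in all 3 of them.

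miR-191 and miR-425, neighbours on chromosome 9, had a correlation across the 14 mice that did not pass once the levels were scaled, and its size and sign changed with the mice included. Pearson's r was 0.26 and Spearman's rho 0.23 (permutation p = 0.359 and 0.434; adjusted p = 0.548 and 0.628). The adjustment here and below is over 1370 pairs, each of a member with another miRNA measured in every mouse or with the haemolysis marker, of which 213 passed for r, and was repeated over the corresponding pairs where mice were left out. In the 6 controls r was 0.80 (exact permutation test, adjusted p = 0.442), and in the 8 OS mice -0.15 (exact permutation test, adjusted p = 0.881), a difference that was not tested. Without the 2 mice farthest from the median of miR-191, control replicate 1 and OS replicate 17, r was -0.11, and control replicate 1 alone turned its sign (-0.11 without it). It was higher without OS replicates 10, 11 and 12 (0.55, adjusted p = 0.499) and in the residuals after the haemolysis marker (0.48, adjusted p = 0.335). In unscaled Cq r was 0.73 (adjusted p = 0.0161), where all assays share the amount of RNA in a sample. There the median r with the other 275 miRNAs was 0.48 for miR-191 and 0.65 for miR-425. miR-425 ranked 42nd among the partners of miR-191 in unscaled Cq, and miR-191 ranked 92nd among those of miR-425.

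Other neighbours give a description to set this pair beside. Among 135 miRNAs placed on the genome, 43 pairs had hairpins less than 10000 bases apart on the same strand, with a median r of 0.58 between scaled levels and a range of -0.56 to 0.96. miR-191 and miR-425 ranked 34th from the highest of them. Some of these pairs share a miRNA, and all share the 14 mice. The arms of miR-425 had r = -0.19 (permutation p = 0.518, adjusted p = 0.695) and ranked 44th of 48 arm pairs measured in every mouse, where the median was 0.40. That r was 0.05 without OS replicates 10, 11 and 12 and 0.08 in the controls. The arms of miR-423 had r = 0.69 (permutation p = 0.00637, adjusted p = 0.0443; rho = 0.70, adjusted p = 0.0619) and ranked 15th. This call was lost without any one of 11 mice, all but OS replicates 10, 16 and 17, with r from 0.60 to 0.77, and also without OS replicates 10, 11 and 12 (r = 0.59, adjusted p = 0.423) or without OS replicates 10 and 11, the farthest on miR-423-3p (r = 0.67, adjusted p = 0.128). It was lost too with group means subtracted (r = 0.51, adjusted p = 0.235) and after the haemolysis marker (r = 0.67, adjusted p = 0.118). In the controls r was -0.11.

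miR-191, miR-425* and miR-423-3p all had their highest levels in OS replicates 10, 11 and 12, and miR-425 did not. miR-425* and miR-423-3p, from different chromosomes, had the highest r of the members, 0.79 (permutation p = 0.00073, adjusted p = 0.0152), with rho = 0.64 (adjusted p = 0.0888). miR-191 and miR-425* had r = 0.69 (permutation p = 0.00628, adjusted p = 0.0439) and rho = 0.82 (adjusted p = 0.0171). Without OS replicates 10, 11 and 12 these were 0.35 (adjusted p = 0.713) and 0.38 (adjusted p = 0.700), and r of the first was 0.55 without the 2 mice farthest on miR-425*, OS replicates 10 and 12 (adjusted p = 0.293). The first call was also lost without OS replicate 10 (0.71, adjusted p = 0.0531) or 12 (0.73, adjusted p = 0.0565), and the second without any one of 11 mice, all but control replicates 3 and 14 and OS replicate 17 (r from 0.61 to 0.76). miR-191 and miR-423-3p, the members the study used together, had r = 0.56 (permutation p = 0.0380, adjusted p = 0.133) and rho = 0.49 (adjusted p = 0.219). Their r was -0.35 in the controls and -0.11 without OS replicates 10, 11 and 12, and without control replicate 1 and OS replicate 17, the farthest on miR-191, it was 0.74 (adjusted p = 0.0403). miR-425 and miR-423-3p had r = -0.23 (permutation p = 0.439, adjusted p = 0.619), and -0.21 without those 3 mice.

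The haemolysis marker passed with miR-423-3p and miR-425* among the 5 members measured in every mouse. Both calls were lost without OS replicates 10, 11 and 12. These 3 mice were set apart for their low marker, so leaving them out shortens its range and lowers the number of mice. A weaker r without them therefore cannot decide whether the relation holds in the other mice. Its r with miR-423-3p was -0.86 (rho = -0.78; permutation p = 6e-05 and 0.00157; adjusted p = 0.00587 and 0.0286), so that mice with a lower marker had more miR-423-3p. It was -0.55 in the 6 controls and -0.92 in the 8 OS mice, -0.79 without the 2 farthest mice, control replicate 13 and OS replicate 10, and -0.60 without OS replicates 10, 11 and 12 (adjusted p = 0.430). The r with miR-425* was -0.71 (permutation p = 0.00389, adjusted p = 0.0337; rho = -0.56, adjusted p = 0.146). It was -0.10 in the controls, -0.86 in the OS mice (exact permutation test, adjusted p = 0.114) and -0.19 without OS replicates 10, 11 and 12 (adjusted p = 0.838). Leaving out any one of 6 mice, control replicate 3 or 14 or OS replicate 10, 11, 12 or 15, also ended this call, with r from -0.57 to -0.82 over the 14 fits that leave out 1 mouse. With miR-425 it was 0.39, with miR-191 -0.37 and with miR-423-5p -0.44, none of them passing (adjusted p of 0.337, 0.370 and 0.263), and these were 0.47, 0.38 and -0.17 without the 3 mice. Among the 274 other miRNAs measured in every mouse 82, or 29.9%, passed with the marker when adjusted over those 274, and miR-423-3p had the third most negative r. With the marker as a covariate the OS against control difference was 0.46 for miR-423-3p (adjusted p = 0.507), 0.58 for miR-425* (adjusted p = 0.515) and 0.70 for miR-423-5p (adjusted p = 0.344). The difference of miR-191* turned to -0.51 in that fit. With unscaled Cq, r of the marker with miR-423-3p was -0.60 (adjusted p = 0.0674).

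**Figure D3:**
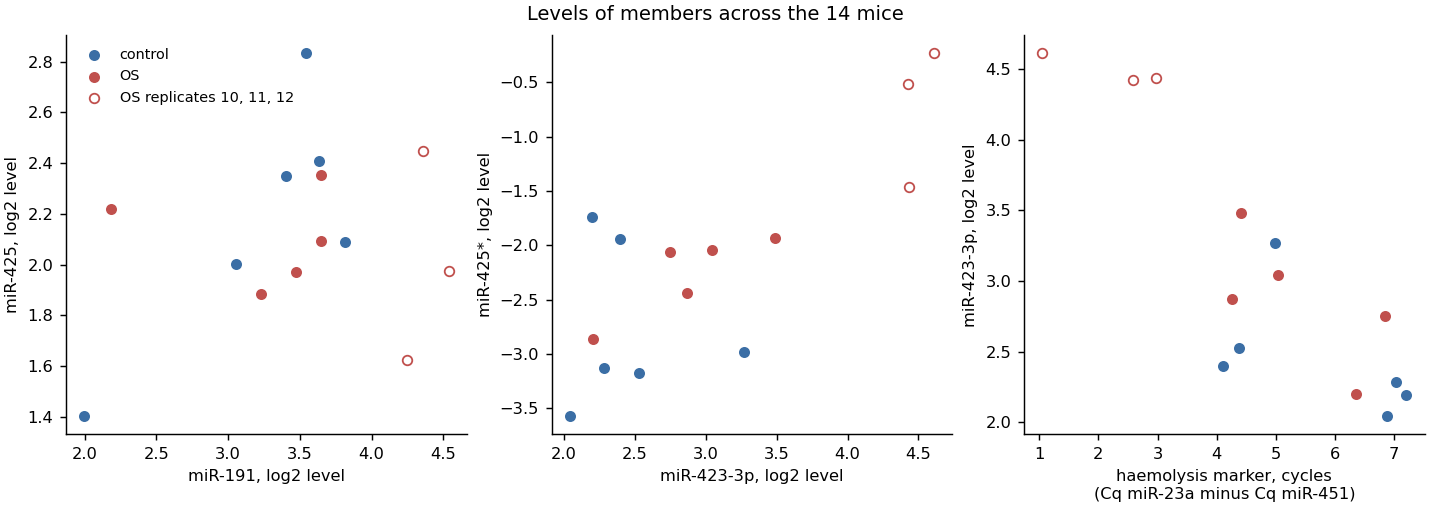
Levels across the 14 mice, with miR-425 against miR-191 on the left, miR-425* against miR-423-3p in the middle, and miR-423-3p against the haemolysis marker in cycles on the right. Controls are blue, OS mice red and OS replicates 10, 11 and 12 open. The left cloud has r = 0.26, the middle one 0.79 and the right one -0.86, and the open circles lie at the end of the middle and right clouds.

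Each of the 3 members used as references had a different set of nearest miRNAs, and the sets did not overlap. By r of scaled levels, miR-191 was nearest to miR-744 (0.86), miR-339-5p (0.86), miR-720 (0.83), which has since been reclassified as a tRNA fragment, rno-miR-347 (0.80) and miR-1939 (0.76), with adjusted p from 0.00603 to 0.0172. Of these, miR-1939 was called between groups (log2 difference 2.76, limma adjusted p = 0.00913). Of all 275 partners, 28 passed with miR-191, 10.2%. miR-744 was also nearest by the SD of the Cq difference, 0.365 cycles over 14 mice, before miR-125a-5p (0.515), miR-331-3p (0.517), let-7b (0.524) and miR-328 (0.560). miR-744 with miR-191 kept r = 0.76 without OS replicates 10, 11 and 12.

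miR-425 was nearest to miR-486 (r = 0.87), miR-17 (0.85), miR-486* (0.84), miR-93 (0.78) and miR-421 (0.77), with adjusted p from 0.00342 to 0.0214, and 13 of 275 partners passed, 4.73%. miR-486 is abundant in red cells and miR-17 and miR-93 belong to clusters active in dividing cells. By the SD of the Cq difference the nearest were miR-19b (0.270), miR-486 (0.287), miR-17 (0.312), miR-93 (0.314) and miR-652 (0.346). None of these 7 miRNAs was called between groups, where 12.6% of all 388 were, and their log2 differences ran from -0.61 to 0.11. They were picked for tracking miR-425, whose own difference was -0.11, in these same mice, so this is not a separate result. Without OS replicates 10, 11 and 12, r of the first 5 was 0.83 to 0.91.

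miR-423-3p was nearest to miR-335-5p (r = 0.93, rho = 0.90, adjusted p = 0.00342), 1 of the 4 candidate markers of the study. After it came miR-149 (0.91), miR-212-3p (0.89), called higher in OS (1.60, limma adjusted p = 0.0407), miR-342-3p (0.88) and miR-151-3p (0.87), with adjusted p of up to 0.00587, and 79 of 275 partners passed, 28.7%. In the controls r with miR-335-5p was 0.82, in OS 0.92, and without OS replicates 10, 11 and 12 0.89, while for the other 4 the last value was 0.64 to 0.70. By the SD of the Cq difference the nearest were miR-342-3p (0.444), miR-151-3p (0.458), miR-874 (0.468), miR-501-3p (0.522) and miR-700 (0.543). The candidates miR-574-3p (r = 0.80) and miR-214 (r = 0.80) were 14th and 15th among the partners of miR-423-3p, whereas with miR-191 the r of these candidates was 0.42 and 0.35, and with miR-425 -0.26 and -0.11.

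As references, miR-425 ranked among the steadiest over all mice, and the order of miR-191 and miR-423-3p changed with the mice included. GeNorm's M, the mean SD of the log2 ratios of a miRNA to all others, was 1.02 for miR-425, the second lowest of 276, where the range was 1.01 to 3.61 and the median 1.30. It was 1.21 for miR-191 (86th), 1.32 for miR-423-3p (145th), 1.18 for miR-423-5p (68th) and 1.39 for miR-425* (170th). NormFinder's value, which adds the difference between groups to the spread within them, was 0.200 for miR-425 (second of 276, the median being 0.694), 0.545 for miR-191 (91st), 0.614 for miR-423-5p (108th) and 0.819 for miR-423-3p (185th), with miR-425* the highest of the members at 0.882. miR-103, the other reference of the study, was 105th and 193rd. These ranks come from every miRNA measured in all mice here, and the sources used here do not give which candidates entered the study's own ranking.

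Within a single group NormFinder's value holds only the spread in that group. Counted from the steadiest, miR-425 was 31st by M and 41st by NormFinder in the controls alone and 4th and 3rd in the OS mice alone. miR-423-3p was 65th and 64th in the controls and 159th and 166th in OS. miR-191 was 98th and 97th in the controls, behind miR-423-3p, and 118th and 114th in OS, ahead of it. None of these differences was tested. Without OS replicates 10, 11 and 12, out of 283 miRNAs, miR-425 was 4th and first, miR-191 90th and 54th, and miR-423-3p 71st and 105th. Leaving out any one mouse kept M at 0.973 to 1.03 for miR-425, 1.15 to 1.24 in the case of miR-191 and 1.23 to 1.36 in that of miR-423-3p, so that the range of miR-425 lay below the other 2, which touched.

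Beside them stand 10 other miRNAs in use as plasma references, namely miR-16, miR-93, miR-103, miR-484, let-7a, miR-24, miR-30c, miR-30e, miR-126-3p and miR-320, all measured in every mouse. None of the 10 had a lower M or NormFinder value than miR-425, and 7 had a lower M than miR-191 and 9 a lower M than miR-423-3p. By NormFinder's value, 5 lay below miR-191 and 8 below miR-423-3p. Their M ran from 1.06 (miR-484) to 1.53 (let-7a). Their median log2 difference between groups was -0.70, against -0.00 over all 388. Of the 10, 1 was called, miR-103 (-1.28, SE 0.36, adjusted p = 0.0295), beside 12.6% of all 388. At an unadjusted limma p under 0.05 there were 4 of 10, beside 119 of all 388. miR-16 is also a red cell miRNA, and miR-126-3p and miR-24 are also platelet miRNAs.

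**Figure D4:**
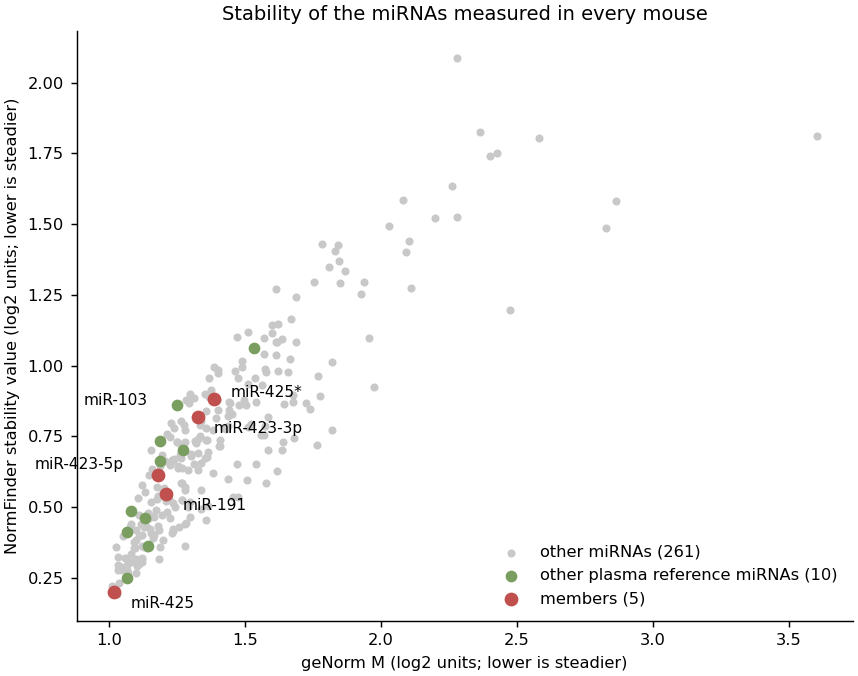
GeNorm M (x axis) against NormFinder stability value (y axis), both in log2 units, for the 276 miRNAs measured in every mouse, where lower is steadier. Members are red, 10 other plasma references green and the rest grey. miR-425 lies in the lower left corner at 1.02 and 0.200, and miR-423-3p in the middle of the cloud at 1.32 and 0.819.

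Used alone as the reference, the members left different spreads in the other miRNAs. The median within-group SD over 270 miRNAs, without the members and miR-103, was 0.824 with the global mean, 0.851 with miR-425, 1.09 with miR-191 and 1.14 with miR-423-3p, while unscaled Cq gave 1.07. Leaving out any one mouse gave 0.810 to 0.873 for miR-425, 0.955 to 1.13 in the case of miR-191 and 1.04 to 1.18 in that of miR-423-3p, so that the last 2 overlapped. All 3 members together gave 0.942, and miR-191 with miR-423-3p and miR-103 gave 0.935. Without OS replicates 10, 11 and 12 the values were 0.734 for the global mean, 0.800 for miR-425, 0.954 in the case of miR-191 and 0.907 in that of miR-423-3p, with unscaled Cq at 1.05. The order of unscaled Cq and these last 2 members thus turned with the mice included: unscaled Cq lay below miR-191 with all mice, at 1.07, and above it without OS replicate 10, 12 or 17 or the 3 mice, and it lay below miR-423-3p except without OS replicate 10 or the 3 mice.

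The choice also set where the middle of all miRNAs lay between groups. With the global mean the median log2 difference was -0.00, and it was 0.12 with miR-425, -0.41 with miR-191 and -1.02 with miR-423-3p, which follows from each reference's own difference. With miR-425, 22 miRNAs were called higher and 17 lower in OS, 10.1% of 387, and 37 of these 39 were also called with the global mean. With miR-191 the counts were 10 and 12, 5.68%, with 21 of 22 shared. With miR-423-3p they were 5 and 72, 19.9%, with 30 of 77 shared. The study's reference miRNAs miR-191, miR-423-3p and miR-103 together gave 22 higher and 11 lower, 8.51%, with 32 of 33 shared. By the methods, the study used them in separate validation mice, together with the spiked-in UniSp2, and scaled the screen to the global mean.

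These counts rested on single mice. The 72 lower calls with miR-423-3p were 3 without control replicate 3 or 14, 13 without control replicate 13 or OS replicate 11, 16 to 21 without OS replicate 10, 12 or 19 or control replicate 4, and 116 and 151 without OS replicates 17 and 15, and they were 1 without OS replicates 10, 11 and 12. The 12 lower calls with miR-191 were 5 without control replicate 3 or 14 or OS replicate 11 or 12, 7 without OS replicate 10 or 19, 22 without OS replicate 15 and 67 without OS replicate 17, the mouse with the lowest miR-191 in OS, and they were 3 without OS replicates 10, 11 and 12. With miR-425 the 22 higher calls were 8 without control replicate 14 or OS replicate 12, 11 without control replicate 3, 14 without OS replicate 10 and 34 without OS replicate 15. The 17 lower calls were 5 to 7 without control replicate 3 or 14 or OS replicate 11 or 12, and 9 to 11 without control replicate 13 or OS replicate 10, 16 or 19. Without OS replicates 10, 11 and 12 there were 1 higher and 2 lower.

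The 4 candidate markers of the study, which the study chose partly on the fold changes in these samples, shifted with the reference. miR-205-5p, an epithelial miRNA, was 15.7-fold lower in OS with the global mean, 14.6-fold with miR-425, 21.1-fold with miR-191 and 32.0-fold with miR-423-3p, and it passed with each, also without any single mouse. miR-335-5p differed by 1.46 (SE 0.56, adjusted p = 0.0978) with the global mean, by 1.57 (SE 0.59) with miR-425, by 1.03 (SE 0.54) with miR-191 and by 0.43 (SE 0.44) with miR-423-3p. miR-574-3p differed by 1.76, 1.86, 1.33 and 0.73 in the same order, and miR-214 by 2.22, 2.33, 1.80 and 1.20. Of the last 3, miR-214 passed with the global mean (adjusted p = 0.0457) and missed with miR-425 (0.0538), miR-191 (0.124) and miR-423-3p (0.132). With the global mean that call held in 4 of the 14 fits that leave out 1 mouse (difference 1.98 to 2.67), those without control replicate 1 or 4 or OS replicate 15 or 18. In the same 4 fits it also passed with miR-425, and without OS replicate 15 with miR-191 (adjusted p = 0.0398) and miR-423-3p (0.0477). Without OS replicate 15 miR-335-5p and miR-574-3p passed with the global mean (adjusted p = 0.0344 and 0.0259) and with miR-425 (0.0432 and 0.0421), and in no fit leaving out 1 mouse with miR-191 or miR-423-3p. miR-205-5p still passed with each reference without OS replicates 10, 11 and 12 (13.2-fold to 18.5-fold lower). In those fits miR-214 differed by 1.32 with the global mean, miR-335-5p by 0.67 and miR-574-3p by 0.97, and by 0.89, 0.24 and 0.54 with miR-423-3p, with no call under any of the 4 scalings (adjusted p from 0.394 to 0.754).

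**Figure D5:**
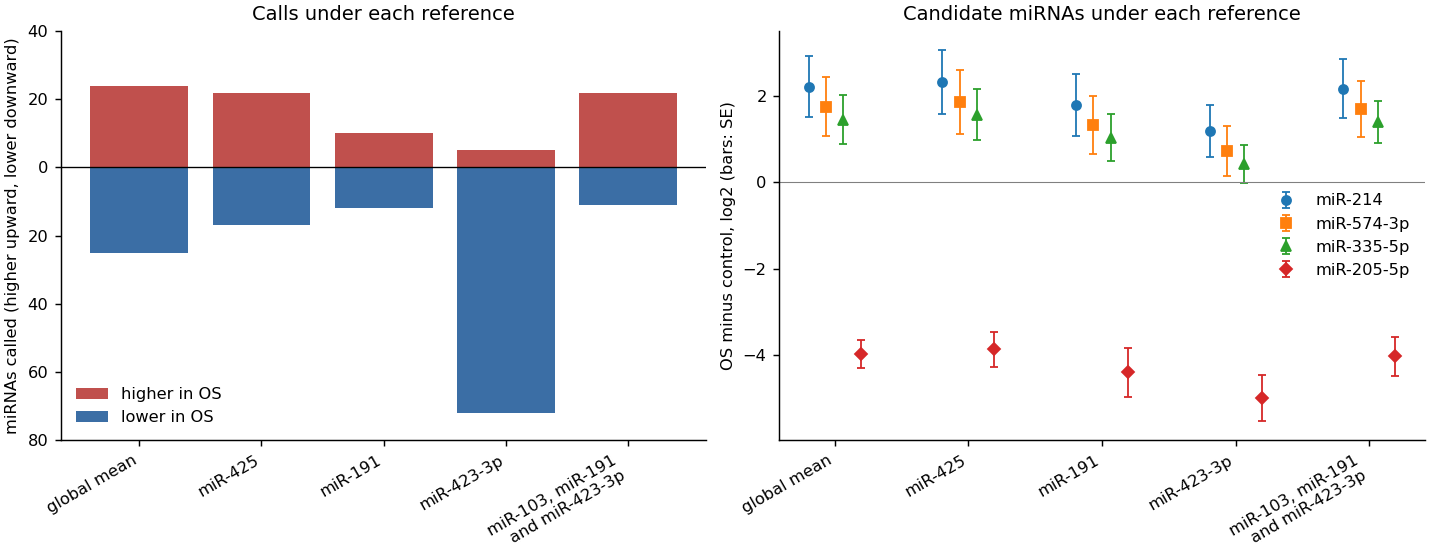
On the left, the number of miRNAs called higher (up, red) or lower (down, blue) in OS when scaled to each reference. On the right, the log2 difference of OS minus control of the 4 candidate miRNAs under the same references, with SE as bars. miR-423-3p gives 5 higher and 72 lower calls and the smallest differences of miR-214, miR-574-3p and miR-335-5p.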

How the data were processed

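Plasma RNA of 14 mice was measured, by the methods, on Exiqon mouse panels in 384-well plates on a Roche LC480. The authors deposited Cq values, which are on a log2 scale and not normalized between mice, and the sources used here do not state whether plates had been calibrated or outliers removed. Wells were named through a deposited table of the authors' own fold changes and p-values, of which no value was used. The methods give 14 OS mice, and 8 were analysed here. No count lies behind a Cq, and precision rests on how far mice and wells spread.

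A Cq over 37 counted as missing. miRNAs with 75% or more missing were dropped, wells of a miRNA were averaged, and each mouse was centred on its mean Cq, in which a gap took the group mean or Cq 38. Groups were compared by limma 3.58.1 in R 4.3.3 (two-sided, Benjamini-Hochberg adjustment) and by two-sided exact permutation over up to 3003 splits (smallest p 0.000333). Correlations used 100000 permutations (smallest p 1e-05), or all pairings within a group, in Python 3.11.15 with numpy 2.4.6, pandas 2.3.3 and scipy 1.17.1, and plots matplotlib 3.10.9. GeNorm and NormFinder were coded from their formulas. GeNorm's M was taken in a single pass over all miRNAs, with none removed step by step. The limma fit, the GeNorm and NormFinder code and the permutation tests were tested on simulated data, and the other steps were not. Named partners are the 5 with the highest r and the 5 with the lowest SD of the Cq difference. Members and lists were chosen with earlier results of these data known. The labels give no batch. Alternatives were other scalings, Cq limits, filters, wells and tests, the haemolysis marker as covariate, and leaving out mice, of which leaving out OS replicates 10, 11 and 12 was chosen after seeing the data.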

Additional observations from a re-analysis of the deposited data

How the results depend on the processing

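No paired analysis was possible because the sources used here do not give which control and OS mice were littermates. No member assay was called under any of the scalings, limits, filters, wells, tests or covariate tried, or without OS replicates 10, 11 and 12, and 0 to 2 were called without 1 mouse, the 2 being miR-423-3p and miR-423-5p without OS replicate 15. Where values below moved, the cause was not tested. The depth of a Cq is not known beyond its limit of 37, near which miR-191* lay. Without 1 mouse the OS minus control difference ran from -0.26 to 0.023 for miR-425, from 0.87 to 1.21 for miR-423-3p and from 0.70 to 1.00 for miR-423-5p. It was -0.011 for miR-191 in unscaled Cq, -0.51 for miR-191* with the haemolysis marker as covariate, and for miR-425 it was 0.032 scaled to the median, 0.14 when panels were centred separately and 0.012 with the covariate. The miR-191 over miR-191* ratio differed by -0.18 with no Cq limit, -0.038 with the panel I well, -0.061 without OS replicates 10, 11 and 12 and -0.43 to 0.35 without 1 mouse, negative without control replicate 1 or 2 or OS replicate 11, 12 or 15. The miR-423 arm ratio differed by -0.24 with the covariate and -0.20 without the 3 mice.

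The r of miR-191 with miR-425 was 0.73 in unscaled Cq, -0.15 in OS mice, -0.11 without the 2 farthest mice and -0.11 to 0.44 without 1 mouse. With miR-423-3p, the r of miR-191 was 0.71 in unscaled Cq, -0.35 in controls, -0.11 without the 3 mice and 0.74 without the 2 farthest. The r of miR-425 with miR-423-3p was 0.39 in unscaled Cq and 0.23 after the haemolysis marker. For miR-191 with miR-425* it lost its call at 0.49 in controls, 0.75 in OS mice, 0.66 with the panel I well, 0.66 after the marker, 0.66 with group means subtracted, 0.38 without the 3 mice and within 0.61 to 0.76 without 1 mouse. For miR-425* with miR-423-3p it was -0.076 in controls, 0.92 in OS mice, 0.49 after the marker, 0.69 with group means subtracted, 0.35 without the 3 mice, 0.55 without the 2 farthest and 0.71 to 0.86 without 1 mouse. The arms of miR-423 had -0.11 in controls, 0.51 with group means subtracted, 0.67 after the marker and 0.60 to 0.77 without 1 mouse, and those of miR-425 had 0.42 in unscaled Cq, 0.082 in controls, 0.14 after the marker and 0.052 without the 3 mice. The marker's r with miR-191 was 0.43 in controls and 0.38 without the 3 mice, and with miR-423-3p -0.60 in unscaled Cq, -0.55 in controls, -0.92 in OS mice and -0.60 without the 3 mice. With miR-425* it was -0.46 in unscaled Cq, -0.096 in controls, -0.86 in OS mice, -0.63 with group means subtracted, -0.19 without the 3 mice, -0.72 without the 2 farthest and -0.82 to -0.57 without 1 mouse.

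GeNorm M of miR-191 was 0.921 in controls and 1.03 without the 3 mice, and that of miR-423-3p 0.873 and 1.00. M of miR-425 was 0.839 in controls, 0.936 in OS mice, 0.936 at a Cq limit of 35, 1.11 over all retained miRNAs, 0.940 over panel I and 0.899 without the 3 mice. Within a single group NormFinder's value is the spread in that group alone, so it is not on the scale of the values over both groups. It was 0.762 for miR-191 in OS mice, 0.392 for miR-425 in controls and 0.453 for miR-423-3p in controls. Over both groups it was 0.488 for miR-423-3p without the 3 mice. The spread left was 0.907 with miR-423-3p and 0.734 with the global mean without the 3 mice.

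Calls higher and lower in OS were 14 and 15 with the global mean at a limit of 35, 11 and 6 with the covariate, 4 and 4 without the 3 mice, and 13 to 35 and 7 to 38 without 1 mouse. With miR-191 they were 6 and 3 with the covariate, 6 and 3 without the 3 mice, 5 to 15 and 5 to 67 without 1 mouse, and 21 lower with the panel I well. With miR-425 they were 2 and 3 with the covariate, 1 and 2 without the 3 mice, and 8 to 34 and 5 to 25 without 1 mouse. With miR-423-3p they were 2 and 5 with the covariate, 3 and 40 with the panel II well, 0 and 1 without the 3 mice, and 0 to 8 and 3 to 151 without 1 mouse.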
